A study of Mus musculus with 37 samples.

Results

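The genes described here encode 9 small proteins that bind calcium in the cytosol of neurons. Calb1 (calbindin), Calb2 (calretinin), Pvalb (parvalbumin) and Scgn (secretagogin) are calcium buffers, and Hpca (hippocalcin), Hpcal1 (hippocalcin-like), Ncs1 (neuronal calcium sensor), Vsnl1 (visinin-like) and Calm2 (1 of the calmodulin genes) are calcium sensors. They were chosen by symbol, and all 9 were found among the 57180 genes counted. Translating RNA was sequenced from 37 mice, 1 library per mouse. In DAT;NuTRAP mice a DAT-IRES-Cre allele, and in VGAT;NuTRAP mice a Vgat-IRES-Cre allele, switched on a NuTRAP allele that adds GFP to ribosomes, so GFP marked dopamine neurons in the first cross and GABA neurons in the second. RNA bound to these ribosomes was pulled down with anti-GFP from horizontal midbrain slices that held the substantia nigra and the ventral tegmental area. DAT;NuTRAP mice were old (4 females and 5 males, 21 months) or young (5 females and 5 males, 8 to 10.5 months), and VGAT;NuTRAP mice were old (5 females and 3 males, 21 to 24 months) or young (6 females and 4 males, 7 to 9 months). All mice carried a Cre allele and the NuTRAP allele, and VGAT;NuTRAP tags GABA neurons of every type in the slice.

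These proteins bind calcium with EF hands, helix-loop-helix folds that usually come in pairs. Buffers take up calcium as it enters and so shape how high and how long a calcium signal lasts. Sensors change shape when they bind calcium and then act on other proteins: calmodulin on kinases, phosphatases and channels, and the neuronal calcium sensor family (Hpca, Hpcal1, Ncs1, Vsnl1) largely at membranes. In the midbrain, calbindin marks dopamine neurons of the ventral tegmental area and of the dorsal part of the substantia nigra, calretinin is found in many dopamine neurons, and parvalbumin marks fast-firing GABA neurons of the reticular part of the substantia nigra.

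Total counts ran from 13841253 to 38235015 per DAT;NuTRAP library and from 19065284 to 35054329 per VGAT;NuTRAP library. Libraries came in a first batch (8 DAT;NuTRAP, 6 VGAT;NuTRAP) and a second batch (11 and 12). DAT;NuTRAP libraries of the second batch held fewer detected genes (14323 to 18170) than those of the first (19085 to 21051). VGAT;NuTRAP libraries held 18485 to 21803 in the second batch and 19482 to 21176 in the first, so the crosses did not overlap in the second batch. Levels are given as CPM, counts scaled to a common library size with TMM factors over all 37 libraries. Slc6a3, the dopamine transporter that defines the first cross, was at 3274 ± 490 CPM in DAT;NuTRAP libraries (SD, n = 19) and 797 ± 243 in VGAT;NuTRAP libraries (n = 18). Slc32a1, the vesicular GABA transporter, was at 96.8 and 421 CPM. The 9 dopamine neuron markers summed to between 9954 and 14560 CPM in DAT;NuTRAP and between 776 and 3161 CPM in VGAT;NuTRAP, so dopamine neuron markers were also found in the VGAT;NuTRAP libraries. The 7 GABA neuron markers summed to between 529 and 904 CPM in DAT;NuTRAP and between 4021 and 5175 CPM in VGAT;NuTRAP. The library of VGAT;NuTRAP old male 2 had 5.10 CPM of Xist, against at most 0.0877 in the other VGAT;NuTRAP males, with Ddx3y in the range of males (79.0 to 101 CPM). Without that library no gene of the 9 gained or lost a call in any comparison.

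Of the 8 genes that passed the filter on low counts within both crosses, 3 were higher and 4 lower in DAT;NuTRAP than in VGAT;NuTRAP libraries, at an adjusted p below 0.05 in edgeR's quasi-likelihood test with Benjamini-Hochberg adjustment over 16898 genes. Calb1, Calb2 and Vsnl1 were higher, and Pvalb, Ncs1, Hpca and Calm2 were lower. Scgn passed the filter through its VGAT;NuTRAP reads alone and is given as a description. Over all genes tested, 30% were higher and 30.4% lower, so 7 of 8 stood beside a background of 60.5%. That background also held genes that, like Scgn, did not pass the filter within both crosses. At a minimum count of 50, 4917 genes were higher and 4585 lower of 13422. For 5 genes (Calb1, Calb2, Pvalb, Ncs1 and Vsnl1) the ranges of the crosses did not overlap, as the plot of CPM in each library shows. The share of all genes without overlap was not computed, so this count is a description of these genes alone. In these bulk libraries, fewer cells of a type and less RNA per cell cannot be told apart.

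**Figure D1:**
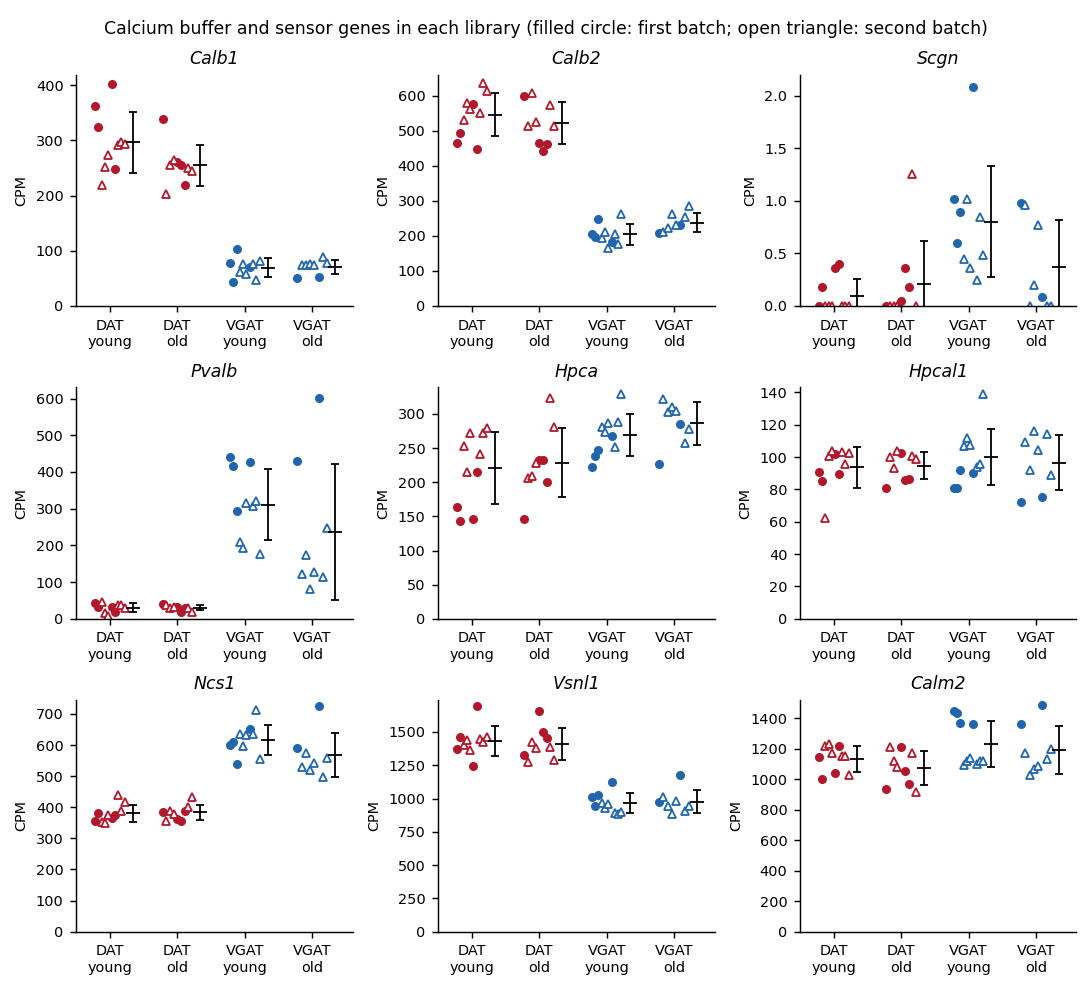
CPM (library-scaled counts, linear axes from 0) of the 9 genes in each of the 37 libraries, by cross and age, with filled circles for the first batch, open triangles for the second batch, and bars for mean and SD of each group (cut at 0 for Scgn). DAT;NuTRAP libraries lie above all VGAT;NuTRAP libraries for Calb1, Calb2 and Vsnl1 and below all of them for Pvalb and Ncs1.

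Calb1 (ENSMUSG00000028222, chr4:15881155-15908085 on the plus strand of GRCm39) encodes calbindin. Its level in DAT;NuTRAP libraries ran from 202 CPM over a median of 262 to 401 CPM, and in VGAT;NuTRAP libraries from 43.8 over 74.1 to 102 CPM. Every dopamine neuron library was above every GABA neuron library. The means, 276 ± 50.9 (SD, n = 19) and 70.2 ± 15.2 CPM (n = 18), differed 3.94-fold, and the fitted log2 difference was 1.96 ± 0.09 (SE, edgeR adjusted p = 2.23e-20). It was 2.09 ± 0.13 in young and 1.82 ± 0.14 in old mice.

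Calb2 (ENSMUSG00000003657, chr8:110864128-110894881, minus strand) encodes calretinin, the closest relative of calbindin among the 9: their coding sequences share 62.7% of aligned bases. It lay between 442 and 637 CPM (median 531) in DAT;NuTRAP and between 165 and 286 CPM (median 210) in VGAT;NuTRAP. The groups were again fully apart, but by less than for Calb1. The log2 difference was 1.29 ± 0.06 (adjusted p = 1.25e-22), from means of 535 ± 60.8 and 220 ± 32.7 CPM.

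Pvalb (ENSMUSG00000005716, chr15:78075314-78091149, minus strand) encodes parvalbumin, a slow-onset buffer of fast-firing neurons. It ran from 7.63 over a median of 32.6 to 45.6 CPM in DAT;NuTRAP and from 81.3 over 270.3 to 601 CPM in VGAT;NuTRAP. This was the widest gap among the 9 genes, 9.19-fold between the means (30.2 ± 9.89 and 278 ± 143 CPM), with a log2 difference of -3.11 ± 0.21 (adjusted p = 1.17e-14). Apart from Scgn, it also had the widest spread among GABA neuron libraries, 7.39-fold from the lowest to the highest. VGAT;NuTRAP libraries of the first batch lay between 294 and 601 CPM and those of the second between 81.3 and 321 CPM.

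Scgn (ENSMUSG00000021337, chr13:24137420-24175197, minus strand) encodes secretagogin, a calcium sensor and buffer of some olfactory and hypothalamic neurons. It was close to the limit of detection. VGAT;NuTRAP libraries held 274 reads in total, in 15 of 18 libraries, and DAT;NuTRAP libraries held 76 reads in 7 of 19, of which 47 came from old male 4. Levels reached 2.09 CPM in VGAT;NuTRAP and 1.26 CPM in DAT;NuTRAP. The ranges overlapped. Because the gene was too low to pass the filter within DAT;NuTRAP, its fitted differences are given with no test. The log2 difference was -2.16 ± 0.75 over both ages, and -3.92 without DAT;NuTRAP old male 4. In young mice it was -3.54 ± 1.11, with reads in 10 of 10 VGAT;NuTRAP and 3 of 10 DAT;NuTRAP libraries. In old mice it was -0.79 ± 1.05, and -3.75 without DAT;NuTRAP old male 4.

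Vsnl1 (ENSMUSG00000054459, chr12:11375161-11488178, minus strand) encodes a visinin-like sensor that moves to membranes when it binds calcium. Its level was 1244 to 1697 CPM (median 1422) in DAT;NuTRAP and 884 to 1174 CPM (median 951) in VGAT;NuTRAP. The groups did not overlap, although the difference was small: 1421 ± 114 against 970 ± 79.0 CPM, or 0.54 ± 0.04 on the log2 scale (adjusted p = 1.65e-16). Vsnl1 varied little between libraries. Its residual SD after the mean of each cross and batch was taken out was 0.0989 on the log2 scale, with 1.94% of 16898 genes below it.

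Ncs1 (ENSMUSG00000062661, chr2:31135714-31188422, plus strand), whose product acts on transmitter release and on dopamine receptors, went the other way. It lay between 351 and 440 CPM (median 379) in DAT;NuTRAP and between 498 and 725 CPM (median 594) in VGAT;NuTRAP. No libraries of the groups overlapped, with a log2 difference of -0.63 ± 0.04 (adjusted p = 1.93e-16). Vsnl1 and Ncs1, both of the neuronal calcium sensor family, thus lay apart in opposite directions.

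Hpca (ENSMUSG00000028785, chr4:129005306-129015916, minus strand) encodes hippocalcin, best known from hippocampal neurons, and Hpcal1 (ENSMUSG00000071379, chr12:17739796-17841964, plus strand) a close relative. Their coding sequences agree at 86.1% of 582 bases, and 12 of 193 codons encode another residue. A stretch of both coding sequences (bases 406 to 465 from the A of the start codon, GENCODE transcripts on GRCm39) is given to show how reads of such close relatives can be told apart, with capitals at the 14 bases that differ.
Hpca: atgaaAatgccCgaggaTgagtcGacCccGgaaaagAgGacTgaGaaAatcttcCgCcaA
Hpcal1: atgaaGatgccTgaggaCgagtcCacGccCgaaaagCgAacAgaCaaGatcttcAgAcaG
None of the windows of 150 bases in the canonical transcripts of the 9 genes occurred in a transcript of another gene, while copies in the genome outside transcripts were not searched. Hpca was lower in DAT;NuTRAP (144 to 323 CPM, median 228) than in VGAT;NuTRAP libraries (222 to 330 CPM, median 280), with overlapping ranges and a log2 difference of -0.28 ± 0.07 (adjusted p = 0.000286). Hpcal1 lay between 62.4 and 104 CPM (median 98.7) in DAT;NuTRAP and between 72.1 and 139 CPM (median 94.5) in VGAT;NuTRAP. Its log2 difference was -0.03 ± 0.06 (95% interval -0.15 to 0.10, adjusted p = 0.719), so a difference between the crosses was not shown for it.

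Calm2 (ENSMUSG00000036438, chr17:87740829-87754363, minus strand) encodes calmodulin. Calm2 and Calm3 encode the same protein of 149 residues, yet 78 of their 450 coding bases differ, so that reads over the coding sequence can still be assigned. The stretch from base 304 to base 363 is printed for both, with capitals at the 14 bases where they are not alike.
Calm2: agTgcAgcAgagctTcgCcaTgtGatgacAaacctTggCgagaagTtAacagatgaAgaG
Calm3: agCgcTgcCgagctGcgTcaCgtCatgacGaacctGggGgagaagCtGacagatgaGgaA
Calm2 ran from 918 over a median of 1142 to 1231 CPM in DAT;NuTRAP and from 1029 over 1136 to 1488 CPM in VGAT;NuTRAP. Its log2 difference was -0.14 ± 0.05 (adjusted p = 0.0124), and neither age alone passed the test (young -0.11 ± 0.06, adjusted p = 0.164; old -0.16 ± 0.07, adjusted p = 0.0511). Without DAT;NuTRAP young female 3 both ages passed (-0.16, adjusted p = 0.0323, and -0.20, adjusted p = 0.0135). Calm3, with means of 1871 and 1815 CPM, had a log2 difference of 0.05 ± 0.04 (95% interval -0.03 to 0.13, adjusted p = 0.297).

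The order of the 9 genes within a cell type was read from CPM per kilobase of exon, because counts grow with the length of a gene's RNA. In DAT;NuTRAP the order of the mean levels was Calm2 (748 CPM per kilobase), Vsnl1 (414), Calb2 (282), Ncs1 (52.6), Hpca (46.1), Calb1 (39.0), Hpcal1 (28.8), Pvalb (8.11) and Scgn (0.0897). In VGAT;NuTRAP it was Calm2 (820), Vsnl1 (283), Calb2 (116), Ncs1 (82.0), Pvalb (74.5), Hpca (56.8), Hpcal1 (30.1), Calb1 (9.90) and Scgn (0.374). Calmodulin and visinin-like RNA thus led in both cell types, while Calb1 and Pvalb changed place. In DAT;NuTRAP, Ncs1 was above Hpca in 14 of 19 libraries, Hpca above Calb1 in 15, and Calb1 above Hpcal1 in 18. The ranges of these neighbours overlapped. Ranges also overlapped in VGAT;NuTRAP for Calb2 above Ncs1 (17 of 18 libraries), Ncs1 above Pvalb (12 of 18), and Pvalb above Hpca (10 of 18). The order within libraries was not tested. With the canonical transcript as length, an alternative chosen after the data were seen, Calb1, Hpcal1 and Hpca became the fifth, sixth and seventh gene in DAT;NuTRAP, and the order in VGAT;NuTRAP was the same. Of the summed level of the 9 genes, Calb2 made up 17.4% ± 1.95 in DAT;NuTRAP and 7.94% ± 1.47 in VGAT;NuTRAP, and Pvalb 0.502% ± 0.165 and 4.90% ± 2.10 (SD).

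**Figure D2:**
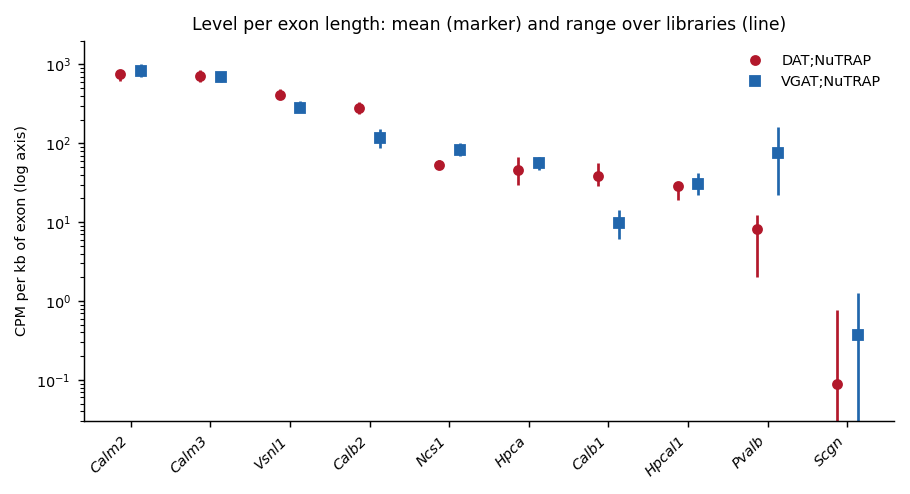
Mean (marker) and range over libraries (line) of CPM per kilobase of exon on a log axis, for the 9 genes and for Calm3, in 19 DAT;NuTRAP (circles) and 18 VGAT;NuTRAP (squares) libraries. Calb1 and Calb2 lie higher in DAT;NuTRAP, Pvalb lies higher in VGAT;NuTRAP, and the lines of Scgn run down to 0, below the axis.

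At both ages the same 3 genes, Calb1, Calb2 and Vsnl1, were called higher in DAT;NuTRAP. In young mice 3 of the 8 genes were higher and 3 lower (Pvalb, Ncs1 and Hpca), beside 24.3% and 25.4% of all genes. In old mice 3 were again higher and the same 3 lower, beside 22.7% and 24.1%. The old difference of Hpca, -0.26 ± 0.10 (adjusted p = 0.0262), lost its call without any of DAT;NuTRAP old females 1, 2, 3 or 4 or VGAT;NuTRAP old male 1 (adjusted p 0.0514 to 0.0849).

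**Figure D3:**
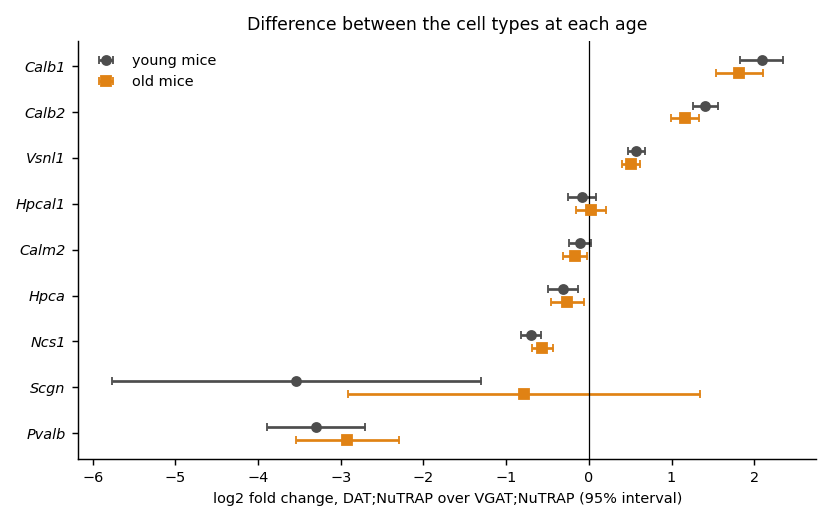
Log2 fold change of DAT;NuTRAP over VGAT;NuTRAP with 95% interval for the 9 genes, in young (circles) and old mice (squares). Calb1, Calb2 and Vsnl1 lie to the right of 0, and Pvalb and Ncs1 to the left, at both ages. Scgn passed the filter through its VGAT;NuTRAP reads alone, so its intervals are a description and no test.

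Within each batch label, the differences of 6 genes kept their direction and their call. The crosses share these labels by name, and whether a label marks the same batch in both crosses is not known. Calb1 was 2.27 higher in the first batch and 1.82 in the second on the log2 scale, Calb2 1.21 and 1.32, and Vsnl1 0.47 and 0.55. Pvalb differed by -3.86 and -2.71, Ncs1 by -0.77 and -0.60, and Hpca by -0.45 and -0.22. The fitted values of Scgn were -2.05 and -3.69. Calm2 did not keep its call: its log2 difference was -0.41 within the first batch (adjusted p = 4.17e-05) but -0.0031 within the second, with an adjusted p of 0.952, and its VGAT;NuTRAP levels of the first batch (1358 to 1488 CPM) and second batch (1029 to 1194 CPM) did not overlap. Hpcal1 was higher in DAT;NuTRAP in the first batch (0.18, adjusted p = 0.0420) and at -0.16 in the second (adjusted p = 0.0745). The call on Calm2 therefore rested on the first batch, and Hpcal1 had opposite signs in the batches.

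Glial markers also differed between the crosses, and the counts called here stand beside 30% of all genes called higher and 30.4% called lower. Of 15 astrocyte markers 14 were called higher and 1 lower in DAT;NuTRAP, with summed levels of 1467 to 3804 CPM against 1256 to 1888 CPM, and of 14 oligodendrocyte markers 13 were called higher and 1 lower, with sums of 552 to 2555 against 289 to 1086 CPM. Of 13 microglia markers 2 were called higher, with sums of 54.1 to 178 and 23.8 to 220.0 CPM. Of 12 hippocampal and cortical excitatory neuron markers, 3 were called higher and 5 lower of 11 tested, with sums of 220.2 to 520.4 and 301 to 384 CPM. None of these markers was at 0 in all libraries of a cross. Of the lists for other neurons, 5 serotonin markers summed to 12.4 to 59.8 CPM in DAT;NuTRAP and 68.3 to 143 CPM in VGAT;NuTRAP (1 called higher and 2 lower), and 6 subcortical excitatory markers to 47.1 to 244 and 81.5 to 278 CPM (2 higher and 1 lower of 5 tested). The 5 cerebellar markers, 1 of them at 0 in both crosses, summed to 27.2 to 45.1 and 22.2 to 61.3 CPM (0 higher and 2 lower of 4 tested), and the 5 cholinergic markers, 1 of them at 0 in VGAT;NuTRAP, to 1.57 to 13.99 and 0.789 to 41.9 CPM (1 higher and 1 lower of 4 tested). For all marker lists, their part in the differences of the 9 genes was not tested.

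Age was compared within each cross. None of the 8 genes tested in DAT;NuTRAP, where Scgn was too low to test, and none of the 9 tested in VGAT;NuTRAP passed in edgeR, DESeq2 or limma-voom. Over all genes, edgeR called 0.00672% with age in DAT;NuTRAP and 0.0256% in VGAT;NuTRAP, so few genes of any kind passed. Before adjustment, edgeR's p was below 0.05 for 1 of the 8 genes in DAT;NuTRAP (Calb1) and 1 of the 9 in VGAT;NuTRAP (Calb2). Over all genes it was below 0.05 for 786 of 14889 and 934 of 15607.

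In DAT;NuTRAP, Calb1 ran from 202 over a median of 255 to 339 CPM in old mice and from 220 over 293 to 401 CPM in young mice. The ages overlapped. The difference was -0.23 ± 0.08 (edgeR adjusted p = 0.931), at -0.32 in the first batch and -0.15 in the second, -0.33 ± 0.11 in males and -0.04 ± 0.09 in females. In VGAT;NuTRAP its old-over-young difference was 0.01 ± 0.16, with opposite signs in the batches (-0.51 with 2 old libraries, and 0.22).

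Calb2 in VGAT;NuTRAP ran from 207 over 231 to 286 CPM in old mice and from 165 over 200 to 263 CPM in young mice. Its difference was 0.21 ± 0.09 (edgeR adjusted p = 0.791), positive in both batches (0.08 and 0.27) and in both sexes (0.18 ± 0.10 in females, 0.34 ± 0.11 in males). In DAT;NuTRAP it was -0.06 ± 0.06. The difference between the crosses in the age effect, VGAT;NuTRAP minus DAT;NuTRAP, was 0.25 ± 0.11 for Calb2 (edgeR adjusted p = 0.9999) and 0.27 ± 0.18 for Calb1. No gene was called in that interaction (0%, with 467 of 16898 genes below 0.05 before adjustment, 1 called by DESeq2 and 0 by limma-voom).

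Pvalb in old VGAT;NuTRAP mice ran widely, from 81.3 over 150.2 to 601 CPM, against 178 over 312 to 442 CPM in young mice. The 2 old libraries of the first batch, female 1 and male 1, stood at 430.0 and 601 CPM, and the 6 of the second batch between 81.3 and 246 CPM. The fitted difference was -0.42 ± 0.25 (adjusted p = 0.874), and it had opposite signs within the batches, 0.38 in the first and -0.82 in the second (adjusted p = 0.999 and 0.296). Ncs1 followed the same course, with -0.11 ± 0.06 over both batches, 0.13 in the first and -0.22 in the second (adjusted p = 0.0506 there), and it was -0.18 without VGAT;NuTRAP old male 1 (adjusted p = 0.396). Scgn in VGAT;NuTRAP had reads in 10 of 10 young libraries (7 to 40 reads each) and 5 of 8 old ones (0 to 26), a difference of -0.90 ± 0.66 (adjusted p = 0.918).

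For the other sensors no age effect was called. The 95% interval ran from -0.12 to 0.31 for Hpca, from -0.14 to 0.08 for Vsnl1, from -0.10 to 0.12 for Ncs1, from -0.15 to 0.18 for Hpcal1, and from -0.20 to 0.04 for Calm2 in DAT;NuTRAP. In VGAT;NuTRAP it ran from -0.04 to 0.14 for Vsnl1, from -0.26 to 0.03 for Hpcal1, from -0.05 to 0.17 for Hpca, and from -0.06 to 0.08 for Calm2. Hpca in DAT;NuTRAP had opposite signs in the sexes, -0.17 ± 0.09 in females and 0.24 ± 0.11 in males, a difference of 0.42 ± 0.14 (males minus females, edgeR adjusted p = 1), and in the batches, 0.27 in the first and -0.03 in the second. The label genes Slc6a3, Th, Slc32a1, Gad1 and Gad2 were not called with age in either cross. In DAT;NuTRAP all 15 astrocyte, all 14 oligodendrocyte and 12 of 13 microglia markers had a higher fitted level in old mice (medians 0.35, 0.34 and 0.72), with 0 called. The summed astrocyte level was 1844 to 3804 CPM in old and 1467 to 2982 CPM in young DAT;NuTRAP mice, and 1360 to 1888 against 1256 to 1599 CPM in VGAT;NuTRAP mice, where 14 of 15 markers had a higher fitted level in old mice and 0 were called. The part of these markers in the values of the 9 genes was not tested.

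**Figure D4:**
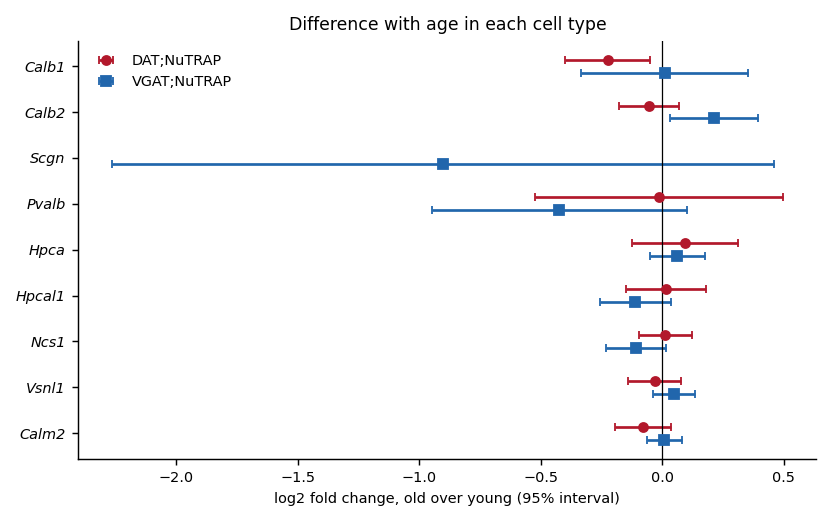
Log2 fold change of old over young with 95% interval for the 9 genes in DAT;NuTRAP (circles) and VGAT;NuTRAP (squares); Scgn was too low to test in DAT;NuTRAP. Intervals that leave out 0, such as those of Calb1 in DAT;NuTRAP and Calb2 in VGAT;NuTRAP, are not adjusted for the number of genes tested.

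Sex was compared in the same way. No gene of the 9 was called by edgeR in females alone or males alone with age, in the interaction of age and sex, or between males and females, in either cross. The shares called over all genes were 0% in DAT;NuTRAP females, 0% in DAT;NuTRAP males, 0% for age by sex in DAT;NuTRAP and 0.148% between the sexes in DAT;NuTRAP. In VGAT;NuTRAP they were 0.032% in females, 0.0315% in males, 0% for age by sex and 0.0822% between the sexes. Where edgeR called none, 601, 868, 703 and 875 genes were below 0.05 before adjustment, in the order DAT;NuTRAP females, DAT;NuTRAP males, age by sex in DAT;NuTRAP and age by sex in VGAT;NuTRAP. DESeq2 called 27 genes higher and 4 lower, 5 higher and 2 lower, 1 higher and 12 lower, and 0 in these comparisons, and limma-voom called at most 1 in each direction.

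Hpca came nearest to a sex difference. In DAT;NuTRAP it ran from 146 to 228 CPM in the 4 old females and from 200 to 323 CPM in the 5 old males, and from 144 to 272 CPM in 5 young females and from 146 to 280 CPM in 5 young males. Males lay higher on average at both ages, with wide overlap. The fitted male-over-female difference was 0.34 ± 0.08 (edgeR adjusted p = 0.110), and it was called by DESeq2 (0.33, adjusted p = 0.0259) and by edgeR without DAT;NuTRAP young male 1 (0.38, adjusted p = 0.0186). In VGAT;NuTRAP it was 0.03 ± 0.06. The change of Scgn with age in VGAT;NuTRAP males, -5.25 ± 1.23 (adjusted p = 0.667, DESeq2 0.0402), rested on 2, 0 and 0 reads in the 3 old males against 40, 7, 23 and 16 in the 4 young males.

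Genes that work with these proteins were read from 3 lists, beside 30% of all genes called higher and 30.4% called lower. Of 38 other EF-hand sensors and buffers, 31 could be tested, 12 were higher and 9 lower in DAT;NuTRAP, and the median log2 difference was 0.03 against 0.01 over all genes. In either direction 60.5% of all genes were called. Kcnip1 and Kcnip3, subunits that bind calcium and tune potassium channels, lay in opposite directions (-2.16 ± 0.10 and 1.98 ± 0.09). S100a10, an annexin partner, was higher (1.98 ± 0.10). Of 31 calmodulin-binding proteins and calcineurin subunits, 9 were higher and 16 lower, with a median of -0.27. Gap43 and Nrgn, which hold calmodulin near membranes, were higher (1.32 ± 0.05 and 1.91 ± 0.12), as was the calcineurin regulator Rcan3 (0.63 ± 0.04), whereas Camta1, a transcription factor, was lower (-0.76 ± 0.04). Of 11 plasma membrane calcium pumps and exchangers, 3 were higher and 7 lower, with a median of -0.51. The pumps Atp2b1 (-1.37 ± 0.08) and Atp2b2 (-1.14 ± 0.06) and the exchanger Slc24a2 (-1.45 ± 0.08) were lower in DAT;NuTRAP, and the exchanger Slc24a3 was higher (0.60 ± 0.06).

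With age, no gene of these 3 lists was called in either cross. Nearest in DAT;NuTRAP were Itpkb, a calmodulin-regulated kinase of inositol phosphates, at 0.52 ± 0.12 (adjusted p = 0.373), Necab1, an EF-hand protein, at -0.37 ± 0.11 (adjusted p = 0.641), and Pcp4, which binds calmodulin, at -0.34 ± 0.12. In VGAT;NuTRAP S100a1 was at 0.99 ± 0.31 (adjusted p = 0.623) and Marcksl1 at -0.44 ± 0.14 (adjusted p = 0.654). The pump Atp2b3 in DAT;NuTRAP was at 0.22 ± 0.12, and Atp2b2 in VGAT;NuTRAP at -0.04 ± 0.05.

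Libraries of 1 cross also differed among themselves, and some of the 9 genes followed the label genes across libraries. Log2 CPM minus the mean of the cross and batch was used, over 18 VGAT;NuTRAP or 19 DAT;NuTRAP libraries. Age and sex were not taken out, so differences with either can be part of a relation. Two-sided permutation p-values came from 100000 permutations within batches and were adjusted over 90 relations. In VGAT;NuTRAP, Pvalb followed Gad1, the larger GABA-synthesising enzyme, with Pearson's r = 0.891 (permutation p = 2e-05, adjusted p = 0.0018) and Spearman's rho = 0.822 (permutation p = 0.00013, adjusted p = 0.0117). The relation was 0.834 in the first batch and 0.915 in the second. It was 0.919 without the 2 libraries farthest from the median of the gene of the 9, here Pvalb. With Gad2, the other such enzyme, Pvalb had r = 0.110 (permutation p = 0.667), at 0.726 in the first batch and -0.0486 in the second. The difference between the relations with Gad1 and Gad2 was not tested.

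Ncs1 in VGAT;NuTRAP followed Gad1 too, with r = 0.739 (permutation p = 0.0006, adjusted p = 0.027), rho = 0.744 (permutation p = 0.00099, adjusted p = 0.0445), 0.760 and 0.736 within the batches, and 0.763 without the 2 farthest libraries. Calb1 in VGAT;NuTRAP followed Th, the enzyme of dopamine synthesis, with r = 0.763 (permutation p = 0.00103, adjusted p = 0.0309) and rho = 0.678 (permutation p = 0.00606, adjusted p = 0.182), 0.874 and 0.566 within the batches, and 0.708 without the 2 farthest libraries. The rank correlation of Calb1 with Th thus missed the threshold after adjustment. In DAT;NuTRAP the relation of Calb1 with Th had r = 0.0997 (permutation p = 0.697), and no relation in that cross had an adjusted p below 0.05. The difference of these relations between the crosses was not tested.

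**Figure D5:**
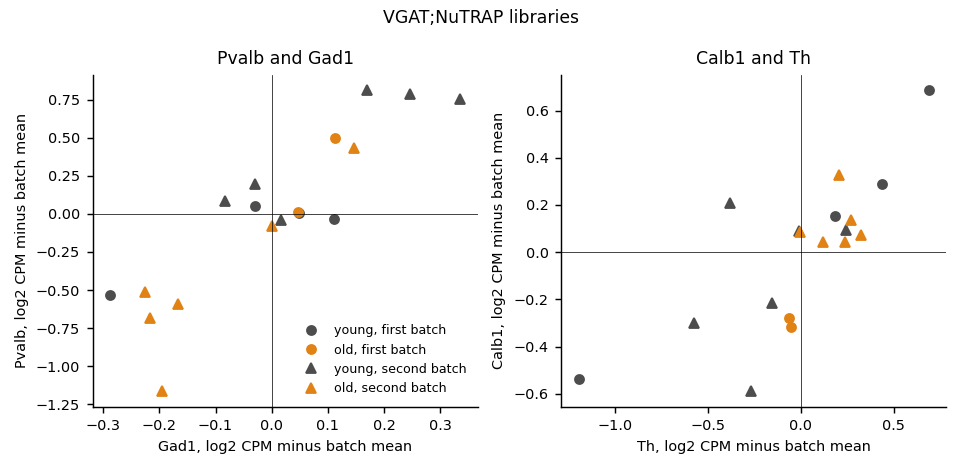
Log2 CPM minus the batch mean of Pvalb against Gad1 (left) and of Calb1 against Th (right) in the 18 VGAT;NuTRAP libraries, coloured by age and with circles for the first and triangles for the second batch. Both pairs rise together (r = 0.891 and 0.763), and the 5 lowest libraries for Pvalb and for Gad1 are 4 old ones of the second batch and 1 young one of the first.

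The genes most like each of the 9 across all 37 libraries, after the mean of each cross and batch was taken out, are given as a description. Calb1 was most like Hpcal4 (r = 0.797), Il13ra1 (0.745) and Tmem255a (0.740). Pvalb was most like Spp1 (0.789), Kcng4 (0.777) and Pcp4l1 (0.706), with 0.897, 0.917 and 0.901 within VGAT;NuTRAP. Ncs1 was most like Lynx1 (0.883), which binds nicotinic receptors, then Endod1 (0.764) and Dnajc27 (0.738). Calb2 came nearest to Aplp1 (0.649), Cd200 and Scg2, Hpca to Camkk1 (0.701), a kinase that calmodulin activates, Nell1 and Rbfox1, and Vsnl1 to Sqstm1 (0.717), Tcf25 and Thy1. Calm2 came nearest to Vdac3 (0.774), Thyn1 and Rpl5, Hpcal1 to Vipr2 (0.750), Mtfmt and Mboat7, and Scgn to Brs3 (0.593), Wif1 and Cpa4. Among the 9 genes themselves, Pvalb and Ncs1 had r = 0.845 over the 18 VGAT;NuTRAP libraries and 0.0759 over the 19 DAT;NuTRAP libraries, and Calb1 and Calb2 had 0.579 and 0.685. These libraries share batch, dissection and depth, which no correlation here takes out beyond the batch mean. Age and sex were not taken out either.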

How the data were processed

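RNA bound to GFP-tagged ribosomes was sequenced from the midbrain of DAT;NuTRAP (n = 19) and VGAT;NuTRAP (n = 18) mice. Per the study's methods and the submitters' processing notes, the authors trimmed reads, aligned them to mm39 (GRCm39) in STAR 2.7.10b and ran featureCounts (no version given in the sources used here) for gene counts. The deposited tables hold raw counts, before the authors' removal of low counts and glial genes, batch correction and DESeq2 tests. All 37 columns were mapped to samples by name. These names do not hold the batch, which was used as a label (first or second) of each sample. The labels have the same names in both crosses, and whether they mark the same batches is not known. Genes were found by trimmed symbol, and lengths and coding sequences came from GENCODE on GRCm39, which held 56620 of 57180 identifiers.

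Counts were analysed with R 4.3.3 and edgeR 4.0.16 (scaling by TMM, filterByExpr with a minimum count of 10, robust quasi-likelihood fit with a batch term, Benjamini-Hochberg adjustment over all genes, calls at an adjusted p below 0.05). Cell types and the interaction of age and cell type were taken from 1 fit of all 37 libraries, with 1 batch term for both crosses. Age and sex were taken from fits of each cross. CPM was computed in edgeR with TMM factors. Intervals are at 95%. Alternatives used DESeq2 1.42.0, limma 3.58.1, other scaling, filters and covariates, each batch alone, and each library left out in turn. Another left out mice of other ages, those outside 8 to 9 months and 21 months. The fits were tested on simulated data. A chi-square test of the counts compared the 70 pairs of libraries of like cross, age and sex, and none was a duplicate (chi-square at least 5.46 times its degrees of freedom). Libraries with the same replicate number are different mice and were not paired.

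The genes, the 3 pathway lists and the marker lists were chosen with earlier results of these data known. Genes named beside the 9 are the label genes, of each pathway list the 4 with the smallest p between the crosses and up to 2 in each age comparison, and for each of the 9 the 3 genes most like it. Of the EF-hand list, 1 gene within this rule is counted but not reported here by name. Protein sequences were not used here.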

Additional observations from a re-analysis of the deposited data

Results flagged for a closer look

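Of 36 groups of 8 to 10 libraries (9 genes, 2 crosses, 2 ages), 7 held a library whose gap to the next was large for the range of its group by Dixon's test, where chance flags about 1 in 20 groups. Calb1 in DAT;NuTRAP old female 1 was at 339 CPM with the next library at 264 CPM. Hpcal1 in DAT;NuTRAP young female 3 was at 62.4 CPM, below the next at 85.2 CPM. Vsnl1 in DAT;NuTRAP young male 2 was at 1697 CPM, with the next at 1465 CPM. VGAT;NuTRAP old male 1, a library of the first batch, stood out for both Ncs1 (725 CPM, next 590.5) and Vsnl1 (1174 CPM, next 1014), and its Pvalb level of 601 CPM was the highest of all libraries. Scgn was highest in DAT;NuTRAP old male 4 (1.26 CPM from 47 reads, next 0.357) and in VGAT;NuTRAP young male 1 (2.09 CPM from 40 reads, next 1.02). The cause of these values was not tested.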

How the results depend on the processing

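Called differences between the crosses kept their call in 261 of 266 alternative fits and 698 of 703 fits without 1 library, with 0 changes of sign, Scgn left aside. The 5 alternatives that lost a call were Calm2 over both ages at a minimum count of 50 (-0.11, adjusted p = 0.0541), with a replicate block (-0.12, adjusted p = 0.0591) and in the second batch alone (-0.0031), and Hpca in young mice in the second batch (-0.18, adjusted p = 0.119) and in old mice in the first (-0.35, adjusted p = 0.197). The 5 fits without 1 library were all of Hpca in old mice, which kept its call in 32 of 37 such fits. Each of these 5 left out a library of an old mouse. For differences at 1 age, the 703 fits also hold those without a library of the other age. The fitted value of Scgn over both ages moved to -3.79 with a replicate block. Hpcal1 between the crosses reversed to 0.18 in the first batch alone. Calm2 gained a call in young mice in 2 alternatives (first batch alone -0.36, a batch term for each cross -0.15) and in old mice in 6 of 14 alternatives and without DAT;NuTRAP old females 2 or 3, young females 2, 3 or 4, old males 1, 2, 4 or 5 or young male 1, or VGAT;NuTRAP old females 3, 4 or 5 (adjusted p 0.0135 to 0.0484). limma-voom moved the median of all genes between the crosses from 0.01 to -0.12, and the 7 calls stood.

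In the age and sex comparisons, 0 genes of the 9 became 1 in these cases: between the sexes in DAT;NuTRAP, Hpca with DESeq2, with no filter (0.35, adjusted p = 0.000921) and without mice of other ages; with age in VGAT;NuTRAP females, Ncs1 in the second batch alone (-0.20, adjusted p = 0.0313); with age in VGAT;NuTRAP males, Scgn with DESeq2 (-5.44, adjusted p = 0.0402) and Calb2 with no filter (0.34, adjusted p = 0.0293); and between the sexes in VGAT;NuTRAP, Pvalb with no filter (0.41, adjusted p = 4.52e-13). Calls over all genes, higher and lower, stand beside these. Between the sexes in DAT;NuTRAP they were 49 and 21 with DESeq2, 104 and 28 with no filter, and 13 and 5 without mice of other ages. With age in VGAT;NuTRAP females they were 64 and 37 in the second batch alone. In VGAT;NuTRAP males they were 13 and 6 with DESeq2 and 48 and 32 with no filter. Between the sexes in VGAT;NuTRAP they were 114 and 346 with no filter, against 6 and 7 in the main fit. Without 1 library the count of the 9 genes between the sexes in DAT;NuTRAP ranged from 0 to 1. It was 1 without DAT;NuTRAP young male 1 (10.5 months). No other mouse of that cross was outside 8 to 9 and 21 months, so this is the fit without mice of other ages. The cause of these changes was not tested. Age in DAT;NuTRAP females and VGAT;NuTRAP males could not be fitted in the first batch alone.

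Same-numbered libraries of old and young mice did not deviate together (17 pairs, r from -0.18 to 0.40, 6 over 0.1, and 1 after the batch was taken out), so a replicate block adjusts for a number alone. It left 6 of the 8 genes called between the crosses. Depth limited Scgn, which had no reads in 12 of 19 DAT;NuTRAP and 3 of 18 VGAT;NuTRAP libraries and could not be tested with age in DAT;NuTRAP.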
